A study of Mus musculus with 4 samples.

Results

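The synuclein genes described here are Sncb and Sncg, chosen by gene symbol and present in each deposited midbrain and striatal table, 2 of 22376 genes listed in all. Sncb encodes beta-synuclein and Sncg encodes gamma-synuclein, small soluble proteins of neurons that bind membranes and are found at presynaptic terminals. Beta-synuclein is made by many neurons of the brain. Gamma-synuclein is best known from peripheral, motor and retinal ganglion neurons, and it is also made by midbrain dopamine neurons. In the annotation of GRCm38.p6, the assembly of mm10, Sncb (ENSMUSG00000034891) is a protein-coding gene at chr13:54758860-54766622 and Sncg (ENSMUSG00000023064) is a protein-coding gene at chr14:34370274-34374669, both on the minus strand.

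RNA was captured on Visium arrays, on which each disc of a 10 µm section carries its own barcode and each captured transcript a unique molecular identifier (UMI). All 8 mice were male and carried the genotype labelled DAT (iCre/iCre), named DAT IREScre in the study's methods, which places Cre recombinase under the dopamine transporter gene, on a C57Bl/6 background, 3 to 4 months old, and single housed with a running wheel. The 3 GqCNO mice (781, 801, 804) received a Cre-dependent AAV carrying the activating receptor hM3Dq-mCherry into both sides of the midbrain and drank the receptor's ligand, clozapine-N-oxide (CNO), at 300 mg/L in 2% sucrose for 1 week. The 3 GqVeh mice (784, 785, 802) received the same virus and drank 2% sucrose, and the 2 CNO alone mice (C1W7, C2W2) were not injected and drank CNO with sucrose. The viral gene is driven by the human synapsin promoter and needs Cre to be expressed. Discs of 2 midbrain dopamine regions, the ventral tegmental area (VTA) and the substantia nigra (SN), were picked by the authors for tyrosine hydroxylase-positive cell bodies and for at least 2 of Th, Slc6a3 and Slc18a2, those of the caudate putamen (CP) for Ppp1r1b, those of the thalamus and the lateral septal complex (LSX) for genes such as Prkcd, and those of white matter for Mbp, and discs were left out where they were high in markers of astrocytes or microglia. In injected mice the midbrain cell body was also mCherry-positive, as the paper states, which could not be asked of the uninjected CNO alone mice. A disc holds several cells, so fewer cells of a type and less RNA per cell cannot be told apart in what follows.

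Levels are UMIs per 10000 UMIs of a column, where a column is all discs of 1 region in 1 mouse. A column held 1 to 7 discs and 7779 to 71906 UMIs in the SN, 2 to 49 discs and 25808 to 350222 UMIs in the VTA, and 357 to 560 discs and 4300381 to 7977003 UMIs in the CP. GqCNO 801 had no thalamus column used here. The genes used to pick discs were high in the regions they were used for, which the picking itself favours. Ppp1r1b was at 22.4 to 25.9 in the CP and at most 0.249 in the SN and VTA. Prkcd was at 1.11 to 11.9 in the thalamus, at 1.95 to 4.98 in the LSX and at most 0.859 in the SN and VTA. Mbp was at 184.0 to 340.0 in white matter. Th was at 5.14 to 27.9 in the SN and at 4.97 to 28.1 in the VTA, but at most 0.2 in the thalamus. Slc6a3, the dopamine transporter, was at 0 in 1 of the GqCNO SN columns, that of mouse 801, which is a single disc.

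The starts of both genes are shown because both genes had their GqCNO levels in the VTA below those of all controls, although only the difference of Sncg passed the threshold. Each sequence is the 120 bases before the start position used in the RefSeq promoter table (GRCm38.p6), on the gene's own strand. For Sncg that start is the first base of the gene as annotated above, and for Sncb it lies inside the gene, so that 27 of the bases shown for Sncb belong to the gene. The sequences are printed with capitals for the GC box (GGGCGG, searched on both strands).
Sncg, chr14:34374670-34374789, minus strand: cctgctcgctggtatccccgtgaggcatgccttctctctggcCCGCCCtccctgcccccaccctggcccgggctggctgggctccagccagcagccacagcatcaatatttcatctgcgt
Sncb, chr13:54766596-54766715, minus strand: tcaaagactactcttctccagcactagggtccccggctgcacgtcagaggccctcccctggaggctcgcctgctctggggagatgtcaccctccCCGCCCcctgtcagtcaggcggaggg
Both held 1 GC box within the 250 bases before that start, as did 32.7% of the 32851 promoter entries of that length. Neither held a TATA box (TATAAA, in 12.4% of entries), a full cyclic AMP response element (TGACGTCA, 1.55%) or the NBRE site bound by NR4A receptors (AAAGGTCA, 1.34%), each searched on both strands. The 250 bases held 7 CG pairs for Sncg and 10 for Sncb, against a median of 6 over all entries.

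The question of the main comparison was which genes differ after a week of chemogenetic activation. Sncg in the VTA was at 2.02, 1.38 and 0.995 UMIs per 10000 in GqCNO mice 781, 801 and 804, against 2.99, 4.65 and 4.80 in GqVeh mice 784, 785 and 802 and 4.00 and 2.68 in CNO alone mice C1W7 and C2W2. All 3 GqCNO mice lay below all 5 control mice, and the control groups overlapped each other. The share of all tested genes that separated in this way was not counted, here or in other regions. The GqCNO mean was 1.47 ± 0.519 (SD, n = 3), against 3.82 ± 0.959 (SD, n = 5) in controls. On log2(level + 0.5) Sncg fell by 1.14 (SE 0.25, 95% interval -1.66 to -0.62), with an adjusted p of 0.0148 from limma with Benjamini-Hochberg adjustment over 6312 genes. In that comparison 96 genes passed, 1.52% of those tested, with 20 of them lower in GqCNO. The two-sided exact permutation test over the 56 splits of the mice gave p = 0.0179, the smallest p it allows. The count test of edgeR on the recovered UMIs gave -1.17 (adjusted p = 0.0309). The call rests on few mice: without GqCNO 801 the adjusted p was 0.0588, and without GqCNO 804 it was 0.185. It was also lost with no filter (adjusted p = 0.159) and by the methods' t-test after adjustment over all genes (adjusted p = 0.377).

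**Figure D1:**
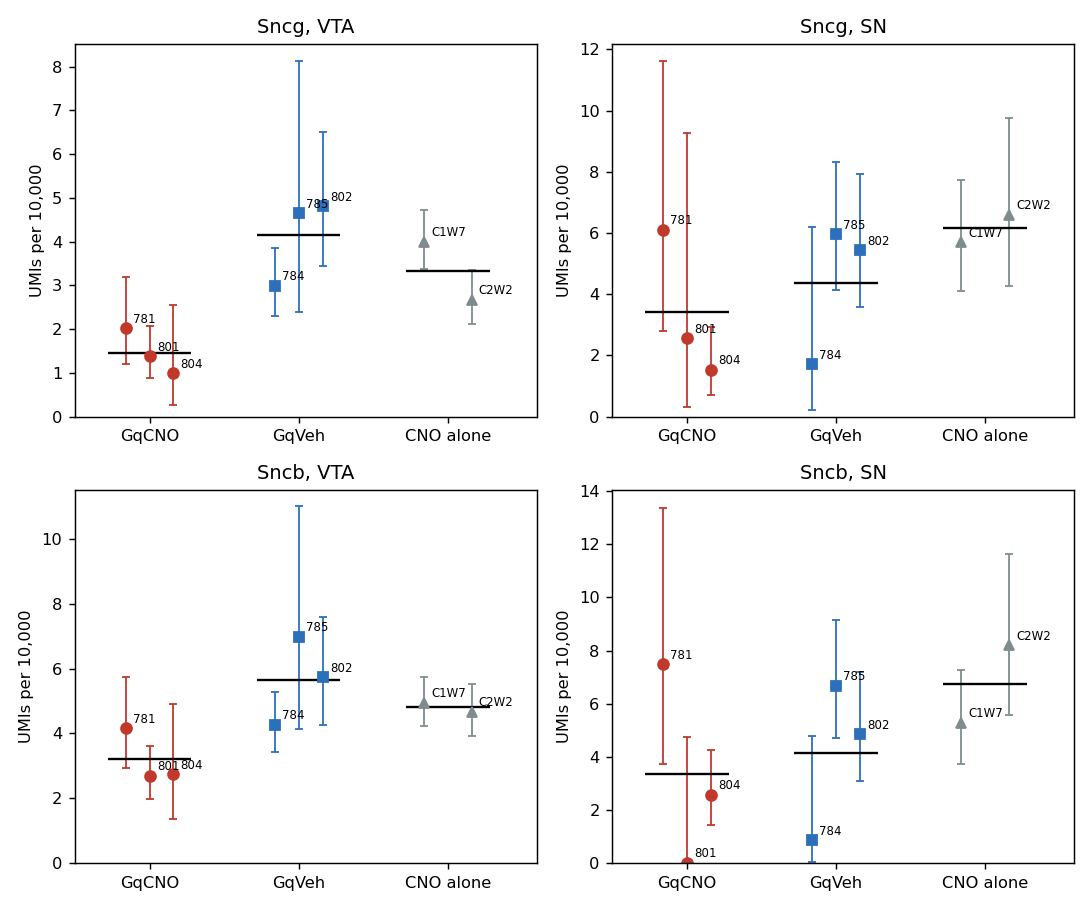
Levels of Sncg (top) and Sncb (bottom) in the VTA (left) and SN (right), in UMIs per 10000 of the column, for each mouse by group. Bars are 95% Poisson intervals of the count and black lines are group means; in the VTA all 3 GqCNO mice lie below every control mouse for both genes, and in the SN the groups overlap.

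Against GqVeh alone, Sncg in the VTA fell by 1.25 on the log2 scale (SE 0.28, adjusted p = 0.0465, limma), a comparison in which 0.475% of genes passed. This call was lost with a smaller constant, another filter, another scaling, the array pair as a block, edgeR, or without any mouse other than GqVeh 784. Against CNO alone the difference was -0.98 (SE 0.31, adjusted p = 0.253, limma), where 1.12% of genes passed. These comparisons share the GqCNO mice. GqVeh minus CNO alone was 0.27 (SE 0.31, adjusted p = 1, limma), where 0.0792% of genes passed. Within array pair 1 the GqCNO mice were lower than the controls by 1.29 on the log2 scale (log2 difference -1.29, 2 mice against 2), and in array pair 2 the difference was -0.78 (1 mouse against 3). The microglia list moved with this result: 7 of its 11 tested genes rose in GqCNO, where 76 of all 6312 genes tested rose. Its summed level was 35.3 to 92.9 in GqCNO mice, 4.65 to 26.8 in GqVeh mice and 4.53 to 4.54 in CNO alone mice. Of the 8 astrocyte genes 2 rose, with sums of 32.6 to 42.4 in GqCNO mice, against 17.4 to 28.4 in controls, and the 5 blood cell genes summed to 1.91 to 47.7, against 0.775 to 9.81. None of the 12 microglia, 8 astrocyte and 5 blood cell genes was at 0 throughout. The part of these cells in the result was not tested. Of the 5 genes that mark cholinergic and motor neurons, which also make gamma-synuclein, 4 were at 0 in every VTA column, and the sum was at most 0.249 in GqCNO mice and at most 0.147 in controls.

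Sncb in the VTA was at 4.16, 2.70 and 2.74 UMIs per 10000 in GqCNO mice 781, 801 and 804, against 4.27, 6.97 and 5.74 in GqVeh mice 784, 785 and 802 and 4.94 and 4.67 in CNO alone mice C1W7 and C2W2. The groups did not overlap, but the highest GqCNO mouse and the lowest control were close. For this gene too the share of all tested genes that separated in this way was not counted. The summed general neuronal genes in the VTA did not overlap either, at 53.2 to 88.5 in GqCNO mice, against 95.2 to 134.0 in controls. The log2 difference of Sncb was -0.66 (SE 0.23, 95% interval -1.13 to -0.18), and it did not pass adjustment (adjusted p = 0.233, limma). The exact permutation p was 0.0179. Within array pairs 1 and 2 the differences were -0.82 and -0.31. Against GqVeh the difference was -0.74 (adjusted p = 0.272, limma) and against CNO alone it was -0.54 (adjusted p = 0.882, limma).

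Whether the genes fell in proportion was asked with log2 ratios within a column. The constant (0.5 in midbrain, 0.05 in the CP) was added to both levels, so at low levels the ratios still depend on scaling and constant. In the SN of GqCNO 801, where Sncb was at 0, the ratio of Sncg to Sncb was 2.62 only through the constant. The ratio of Sncg to Sncb in the VTA was -0.88, -0.77 and -1.11 in GqCNO mice 781, 801 and 804, against -0.45, -0.54 and -0.23 in GqVeh mice 784, 785 and 802 and -0.27 and -0.70 in CNO alone mice C1W7 and C2W2. Every GqCNO mouse was below every control, by a mean of -0.48, with an exact permutation p of 0.0179, unadjusted and the lowest of 9 ratio tests. Without GqCNO 804 the difference was -0.39 (exact permutation p = 0.0952). Against the summed general neuronal genes, Sncg in the VTA differed by -0.41 (exact permutation p = 0.214) and Sncb by 0.068 (exact permutation p = 0.768). Against Th, the rate-limiting enzyme of dopamine synthesis, Sncg in the VTA differed by -0.32 (exact permutation p = 0.464). In the SN the ratios differed by 0.48 for Sncg to Sncb (exact permutation p = 0.696), 0.45 for Sncg to Th (p = 0.375), 0.48 for Sncg to the neuronal genes (p = 0.321) and -0.0066 for Sncb to the neuronal genes (p = 1), and in the CP Sncg to Sncb differed by 0.067 (p = 0.696), all by exact permutation and all within the spread between mice.

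In the SN, Sncg was at 6.12, 2.57 and 1.54 UMIs per 10000 in GqCNO mice 781, 801 and 804, against 1.72, 5.97 and 5.45 in GqVeh mice 784, 785 and 802 and 5.70 and 6.61 in CNO alone mice C1W7 and C2W2. The groups overlapped, since GqCNO 781 was among the controls and GqVeh 784 among the GqCNO mice. These values rest on few UMIs: 9, 2 and 9 in the GqCNO columns, of which those of 781 and 801 are a single disc, and 2 in that of GqVeh 784. The difference was -0.58 (SE 0.42, adjusted p = 0.735, limma), in a comparison in which 40 of 6174 genes, 0.648%, passed. Without GqCNO 781 it was -1.05, without GqCNO 804 it was -0.20 and without GqVeh 784 it was -0.89, and it was -0.92 with TMM scaling and -1.14 by edgeR, none past the threshold. Over all mice the difference was -0.35 against GqVeh (adjusted p = 0.902) and -0.94 against CNO alone (adjusted p = 0.869), both by limma, where 0.194% and 0.615% of genes passed. GqVeh minus CNO alone was -0.59 (adjusted p = 1, limma), where 0.0648% of genes passed.

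Sncb in the SN was at 7.47, 0 and 2.57 UMIs per 10000 in GqCNO mice 781, 801 and 804, against 0.859, 6.67 and 4.84 in GqVeh mice 784, 785 and 802 and 5.28 and 8.19 in CNO alone mice C1W7 and C2W2. The 0 in GqCNO 801 is 0 of 7779 UMIs, which allows a level of up to 3.86 per 10000. The difference was -1.07 (SE 0.44, limma adjusted p = 0.5003), and the exact permutation p was 0.375. Without GqCNO 781 it was -1.96 (adjusted p = 0.00683, limma), and without GqCNO 801 it was 0.036, so single-disc columns decide the value. Without GqVeh 784 it was -1.52 (adjusted p = 0.0206, limma). Against GqVeh the difference was -0.70 (adjusted p = 0.815) and against CNO alone -1.62 (adjusted p = 0.301), both by limma, and without GqCNO 781 the difference from CNO alone was -2.52 (adjusted p = 0.002, limma). GqVeh minus CNO alone was -0.93 (adjusted p = 1, limma). Of the 11 microglia genes tested in the SN 2 rose, where 23 of all 6174 genes tested rose. The microglia genes summed to 34.7 to 67.3 in the SN of GqCNO mice, 20.2 to 44.7 in GqVeh mice and 3.44 to 5.84 in CNO alone mice. The limma standard errors in the SN are set almost wholly by the spread shared over genes, not by that of the gene itself.

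Whether the response of a gene differed between the SN and the VTA was tested on the difference per mouse. The SN minus VTA difference in response was 0.56 for Sncg (SE 0.53, 95% interval -0.50 to 1.61, adjusted p = 0.919) and -0.41 for Sncb (SE 0.65, 95% interval -1.71 to 0.89, adjusted p = 0.946), by limma. In this test 0 of 5341 genes passed (0%), with 291 at an unadjusted p under 0.05. A difference between the regions is therefore not shown, and the intervals are wide.

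**Figure D2:**
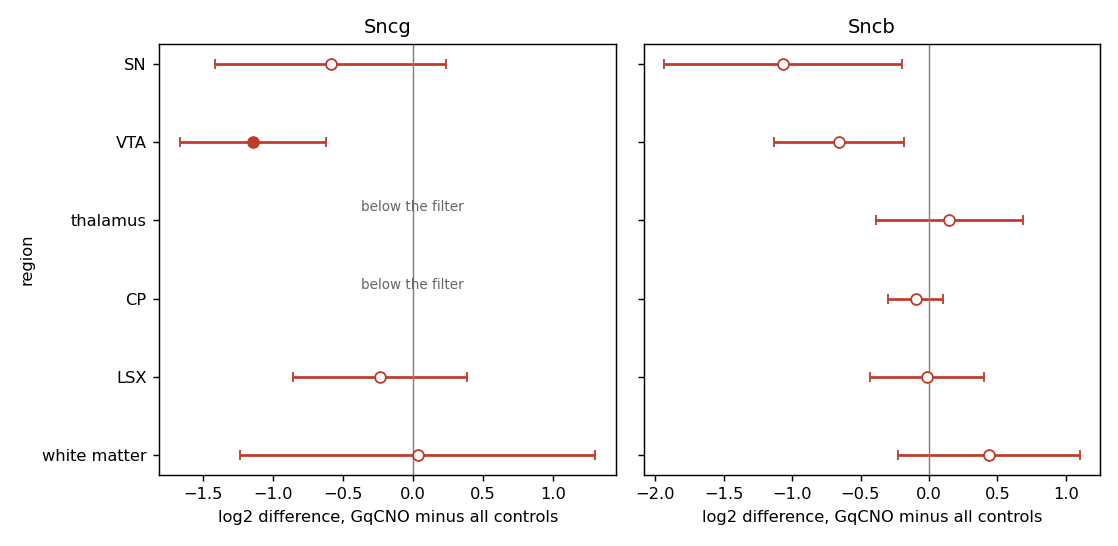
Log2 difference of GqCNO minus all controls for Sncg (left) and Sncb (right) in 6 regions, with 95% intervals from limma; filled points passed an adjusted p of 0.05. Sncg in the VTA, at -1.14, is the only filled point, and Sncg in the thalamus and CP was below the filter on low values.

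The genes around these values were described by lists. Of the 25 dopamine neuron genes, 19 were tested in the VTA, 7 were lower and 0 higher, with a median log2 difference of -0.82, against -0.0572 over all genes tested. Over all 6312 genes tested there, 20 were lower and 76 higher. The 4 with the smallest p in the VTA were Slc6a3, the dopamine transporter, Ddc, which makes dopamine from L-DOPA, Slc18a2, the vesicular monoamine transporter, and Slc10a4, a transporter-like protein of synaptic vesicles. Slc6a3 averaged 0.633 ± 0.138 in GqCNO mice (SD, n = 3) and 4.44 ± 0.770 in controls (SD, n = 5), a log2 difference of -2.12 (adjusted p = 3.23e-05, limma). The log2 differences of the other genes were -1.44 for Ddc (adjusted p = 0.000567), -1.40 for Slc18a2 (adjusted p = 0.00285) and -1.18 for Slc10a4 (adjusted p = 0.00533), from limma. Th, Slc6a3 and Slc18a2 were among the genes used to pick discs. In the SN, 4 of 18 tested genes were lower and 0 higher, with a median of -0.91, against -0.0822 over all genes tested. Over all 6174 genes tested there, 17 were lower and 23 higher. In the same columns 3 of 4 tested blood cell genes rose (summed level 7.47 to 32.1 in GqCNO mice, against 0.202 to 18.5 in controls), as did 1 of 8 astrocyte genes (29.2 to 52.3 in GqCNO mice, against 23.0 to 31.9 in controls) and the microglia genes given above. Of the 5 GABAergic neuron genes 1 rose in the SN, while 3 had a difference below 0. They summed to 4.08 to 11.6 in the SN of GqCNO mice, against 3.83 to 6.32 in controls. In the VTA 0 of the 5 passed, with sums of 5.22 to 11.6 in GqCNO mice, against 1.16 to 5.86 in controls. None of the genes of these lists was at 0 throughout, and the part of these cells in the SN values was not tested. The SN differences were -2.17 for Ddc (limma adjusted p = 4.96e-06) and -1.75 for Aldh1a1, an aldehyde dehydrogenase of a subset of dopamine neurons (limma adjusted p = 6.28e-06). They were -1.03 for Th (limma adjusted p = 0.0398) and -2.07 for Slc10a4 (limma adjusted p = 0.0031). Th in the SN was at 5.14 to 27.9 in GqCNO mice, against 16.3 to 26.7 in controls. Ddc was at 0 to 10.2, against 4.29 to 16.6, so for both genes the groups overlapped. These p-values use the spread shared over genes, and by the methods' t-test 0 genes passed adjustment in the SN.

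Of the 32 presynaptic vesicle genes, 30 were tested in the VTA, where 20 of all 6312 genes tested were lower. Of these 30 genes 2 were lower and 0 higher, with a median of -0.42. The 2 were Syt1, the calcium sensor of transmitter release, at a log2 difference of -1.37 (adjusted p = 0.00282, limma), and Cplx1, complexin 1, at -1.32 (adjusted p = 0.0098, limma). Cplx2 and Vamp1 did not pass, at -1.04 (adjusted p = 0.0595) and -1.17 (adjusted p = 0.0744) by limma. In the SN 0 of 31 passed, with a median of -0.32, and the smallest p belonged to Syngr3 (-1.73, adjusted p = 0.0555), Syt1 (-1.49, adjusted p = 0.0578), Cplx1 (-1.01, adjusted p = 0.172) and Syn1 (-1.32, adjusted p = 0.428) by limma. Of the 16 general neuronal genes, all tested, 3 were lower in the VTA (20 of 6312 over all genes) and 4 in the SN (17 of 6174 over all genes). Their median log2 difference was -0.69 in the VTA and -0.81 in the SN, near the -0.82 and -0.91 of the dopamine neuron genes. In the VTA 16 of them and in the SN 13 of them had a difference below 0, against 3584 of 6312 and 3404 of 6174 over all genes. The summed level of the general neuronal genes in the VTA was 53.2 to 88.5 in GqCNO mice, against 95.2 to 134.0 in controls.

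Outside the SN and VTA neither member passed. In the thalamus Sncb was at 7.07 in GqCNO 781 and 6.95 in GqCNO 804, against 4.50 to 9.85 in the 5 controls (median 5.88). The difference was 0.15 (SE 0.26, adjusted p = 0.998, limma). Of 6399 genes 0% passed there, with 214 at an unadjusted p under 0.05. By edgeR 0 passed adjustment, with 338 at an unadjusted p under 0.05. Sncg in the thalamus amounted to 3 UMIs over 832419 in GqCNO and 5 UMIs over 1047246 in controls, below the filter on low values.

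In the CP, Sncb was at 1.42, 1.54 and 1.55 in GqCNO mice 781, 801 and 804, against 1.55 to 1.67 in the 5 controls (median 1.63). All 3 GqCNO mice lay below all controls, but the nearest values, 1.553 in GqCNO 804 and 1.555 in GqVeh 785, differ by less than the counting error of either. The difference was -0.098 (SE 0.09, 95% interval -0.30 to 0.10, adjusted p = 0.999, limma; exact permutation p = 0.0357). Of 10813 genes 0% passed in this comparison, with 400 at an unadjusted p under 0.05. By edgeR 1 passed adjustment, with 430 at an unadjusted p under 0.05. Against GqVeh, with 0.0462% of genes passing, the difference was -0.073, and against CNO alone, with 0% passing, -0.13. GqVeh minus CNO alone was -0.061, with 0% passing. At an unadjusted p under 0.05 there were 273 genes in GqCNO minus CNO alone and 398 in GqVeh minus CNO alone by limma, and 267 and 393 by edgeR, by which 0 passed adjustment in either. Sncg in the CP was at 0.0257, 0.0200 and 0.0279 in GqCNO mice 781, 801 and 804, against 0.00949 to 0.0506 in controls, below the filter.

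In the LSX, Sncg was at 0.227, 0.385 and 0.248 in GqCNO mice 781, 801 and 804, against 0.236 to 0.430 in controls (median 0.372), and the groups overlapped. The difference was -0.23 (SE 0.29, adjusted p = 0.918, limma). Sncb in the LSX was at 2.06, 1.93 and 2.24 in GqCNO mice, against 1.45 to 2.51 in controls, with a difference of -0.013 (SE 0.19, adjusted p = 0.995, limma). Of 11036 genes 0% passed, with 352 at an unadjusted p under 0.05. By edgeR 0 passed adjustment, with 349 at an unadjusted p under 0.05. In white matter, where 0.0367% of genes passed, Sncb was at 3.13, 1.09 and 2.40 in GqCNO mice, against 0.665 to 3.08 in controls (0.44, SE 0.32, adjusted p = 0.998, limma). Sncg there had 2, 2 and 0 UMIs in the GqCNO columns and 11 in all controls (0.036, SE 0.61, adjusted p = 0.998, limma).

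Levels were compared between the picked discs of the regions within the 5 control mice. SN and VTA discs were picked for dopamine neuron cell bodies and genes, and thalamus discs for other genes, so whole regions were not compared. Sncg was high in the SN (mean 5.09 ± 1.93, SD, n = 5) and VTA (3.82 ± 0.959), whose difference did not pass (log2 0.29, 95% interval -0.29 to 0.88, adjusted p = 0.961, limma; 0% of 5341 genes passed, 164 at an unadjusted p under 0.05), and low in the thalamus, LSX, CP and white matter. Among pooled control UMIs the Sncg level per 10000 was 5.66 for the SN, 3.47 for the VTA and 0.0477 for the thalamus. The SN held 119-fold and the VTA 72.7-fold the thalamus level, with counting intervals of 49.5 to 371 and 30.8 to 225. That thalamus level rests on 5 UMIs, with 2 of the 5 control mice at 0. Sncg was below the filter in the thalamus and so was not among the genes tested in both regions, of which 9.9% passed for SN minus thalamus and 22.1% for VTA minus thalamus. Without a filter SN minus thalamus was 3.25 for Sncg (adjusted p = 0.0311, limma), where 2.78% of genes passed, and VTA minus thalamus was 2.96 (adjusted p = 0.00704, limma), where 8.79% passed. The log2 scale with its constant of 0.5 understates these folds.

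Sncb was detected in all 3 regions of the midbrain arrays, but its UMI count was 1 in the SN of GqVeh 784 and 0 in that of GqCNO 801. Its control means were 5.17 ± 2.74 for the SN, 5.32 ± 1.07 for the VTA and 6.48 ± 2.00 for the thalamus (SD, n = 5), and none of the SN minus VTA (-0.25), SN minus thalamus (-0.49, 95% interval -1.12 to 0.14, adjusted p = 0.368) and VTA minus thalamus (-0.24, 95% interval -0.64 to 0.17, adjusted p = 0.422) differences passed in limma.

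**Figure D3:**
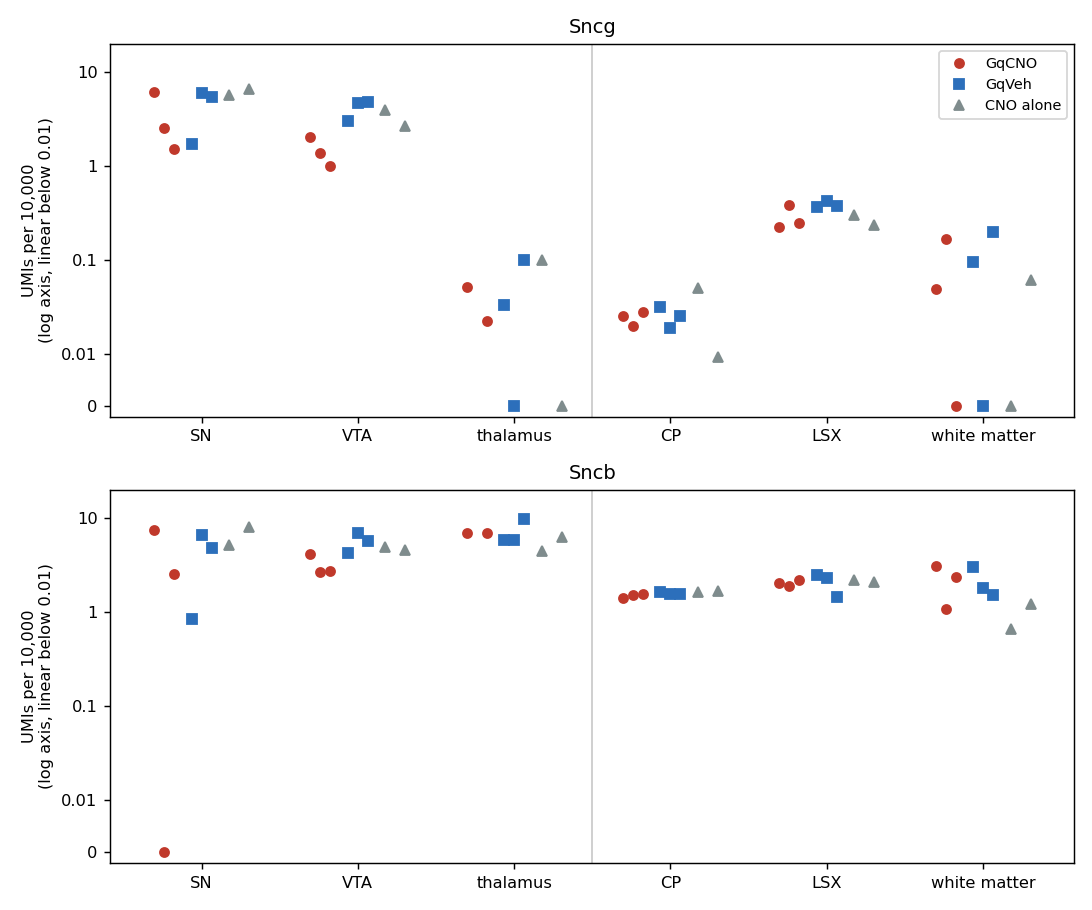
Sncg (top) and Sncb (bottom) in 6 regions, 1 point per mouse by group, in UMIs per 10000 on an axis that is logarithmic above 0.01; the vertical line separates midbrain from striatal arrays, which were normalized separately. Sncg is at 0.995 or more in every SN and VTA column and at most 0.1 in the thalamus, whereas Sncb is between 4.50 and 9.85 in every thalamus column.

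In striatal arrays Sncg was highest in the LSX, at a pooled control level of 0.316, against 0.0887 in white matter and 0.0269 in the CP. LSX minus white matter was 1.95 (SE 0.39, adjusted p = 0.00803, limma), where 28.3% of genes passed. Sncg was below the filter in the CP and so was not among the genes tested in both regions, of which 26.3% passed for CP minus LSX. Without a filter CP minus LSX was -2.35 for Sncg (adjusted p = 0.000644, limma), where 19.1% of genes passed. The LSX held 11.8-fold the pooled CP level (counting interval 8.72 to 15.9). CP minus white matter was -0.40 without a filter (adjusted p = 0.527, limma), where 24.6% of genes passed, and 34.9% passed among genes tested in both. For Sncb CP minus LSX was -0.37 (SE 0.13, adjusted p = 0.0808, limma), CP minus white matter 0.12 (adjusted p = 0.765) and LSX minus white matter 0.48 (adjusted p = 0.264), by limma. Midbrain and striatal arrays were normalized separately, so no test was made between them.

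**Figure D4:**
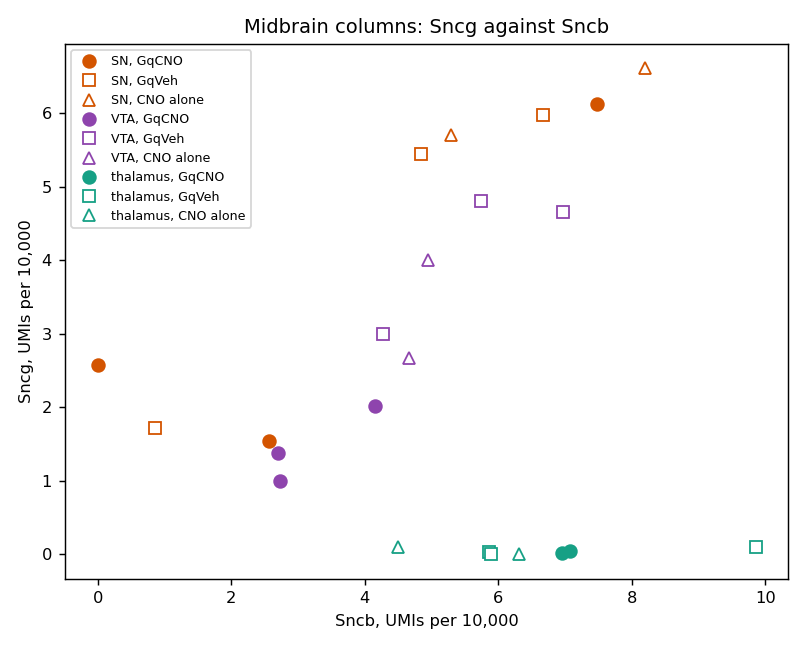
Sncg against Sncb, each in UMIs per 10000, in the 23 midbrain columns, coloured by region and marked by group. Thalamus columns lie along the bottom, with Sncg at most 0.1 at Sncb levels of 4.50 to 9.85, and the VTA columns of GqCNO mice lie below those of controls on both axes.

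Over the 23 midbrain columns the log2 levels of Sncg and Sncb had a Pearson correlation of -0.0984, and over the 24 striatal columns of 0.337. Columns share mice, arrays and depth, so these are descriptions. Among the 4802 genes tested in every midbrain region, the genes closest to Sncg included Bex3 (r = 0.917) and Mif, a cytokine (0.887). They also included Agpat4, a lipid acyltransferase (0.881), and Iscu, a scaffold for iron-sulphur clusters (0.87). Those closest to Sncb were Ccdc92 (0.902), Rap1gds1 (0.898), Gabbr1, a GABA-B receptor subunit (0.887), Got1, an aspartate aminotransferase (0.878), and Sult4a1 (0.877). Genes low in the thalamus, as Sncg is, were left out by that scope. Among the 7887 genes tested in at least 1 midbrain region, the closest to Sncg were Slc18a2 (0.961), Sv2c (0.943), Th (0.942), Lbh (0.928) and Dlk1 (0.922). Th and Slc18a2 were used to pick the SN and VTA discs, which favours such a likeness. Over the 24 striatal columns the candidates were the 9808 genes tested in every striatal region. The closest of them to Sncg were Glra2, a glycine receptor subunit (0.934), Kcnip1, which binds potassium channels (0.898), and Fgfr1, a growth factor receptor (0.89). Next came Hectd2 (0.888) and Cotl1 (0.888). The closest to Sncb were Cep170b (0.887), Wdr74 (0.825), Ywhah (0.798), Mfsd5 (0.793) and Ccdc184 (0.786). Among the 12070 genes tested in at least 1 striatal region, Aard (0.911) and Cacna1g (0.903) also came above Kcnip1 for Sncg. For Sncb, Mapk11 (0.787) came above Ccdc184.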

How the data were processed

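The mouse was the replicate. The authors aligned Visium reads to mm10 with Space Ranger (version not given in the sources used here), picked discs in Loupe Browser, and deposited a median-normalized average signal per gene and column (all discs that a mouse has in a region). The deposited low values were whole multiples of 1 step (100% within 0.05 steps), so the UMIs behind them were recovered. A deposited region label per disc, of another kind, served only to count discs. Depth sets the precision: Poisson and counting intervals cover counting error only.

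Each of the 47 columns was rescaled to 10000, and log2 values were taken after adding 0.5 (midbrain) or 0.05 (striatum). The filter asked for a mean level of 0.25 or more in midbrain regions and 0.05 or more in striatal ones, and the genes left were tested with limma 3.58.1 in R 4.3.3 and adjusted by Benjamini-Hochberg over all genes of the region. Members and ratios had two-sided exact permutation tests (Python 3.11.15). Region differences were taken within mice. The fit was tested on simulated data. Alternatives changed scaling, constant, filter, block, tool (edgeR 4.0.16 on the recovered UMIs) and mice. The members and lists were chosen with earlier results of these data known. Named genes were, per member, the 5 most correlated genes and, per list, the 4 smallest p. The results on 1 such gene are not reported here.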

Additional observations from a re-analysis of the deposited data

Results flagged for a closer look

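Sncg in the SN of GqVeh 784 was 1.72 UMIs per 10000, against 5.45 to 6.61 in the other 4 control mice, a gap of 0.763 of the range of the 5 controls where the 95% limit is 0.71. Chance flags about 1 in 20 such groups, and 12 groups were tested. That column held 11644 UMIs, of which 2 were Sncg, and its Sncb level was also the lowest of the controls, at 0.859. Without GqVeh 784 the GqCNO minus controls difference of Sncg in the SN was -0.89 (adjusted p = 0.463, limma).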

How the results depend on the processing

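Over 646 refits of 44 results, 587 kept direction and side of the threshold. Sncg in the VTA (GqCNO minus all controls) lost its call with no filter (-1.14, adjusted p = 0.159) and by the methods' t-test after adjustment (-1.14, adjusted p = 0.377), and ranged from -1.34 to -0.96 as mice were left out. Against GqVeh it lost its call with values as deposited (-1.28), TMM scaling (-1.17), a smaller constant (-1.46), no filter (-1.25), a stricter filter (-1.25), the array pair as a block (-1.17), edgeR (-1.24) and the methods' t-test (-1.24), and with mice left out it ranged from -1.45 to -1.07. The cause was not tested. Reversals concerned differences that did not pass: Sncb, GqVeh minus CNO alone in the VTA, under TMM (-0.016); Sncb in the LSX with the block (0.061); Sncg in white matter with the block (-0.21) and by edgeR (-0.39); and the ratio of Sncb to neuronal genes in the SN with a larger constant (0.24). Sncb SN minus thalamus passed under TMM (-0.87), and CP minus LSX passed with a larger constant (-0.34), a stricter filter (-0.37) and all 8 mice (-0.40). Leaving out single mice gave ranges of -1.05 to -0.20 for Sncg in the SN (all controls), -1.96 to 0.036 for Sncb in the SN (all controls), -1.59 to 0.41 (GqVeh) and -2.52 to -0.52 (CNO alone), -0.84 to 0.034 for Sncg in the SN (GqVeh), -0.14 to 0.052 for Sncb in the LSX, -0.51 to 0.55 for Sncg in white matter, -0.50 to 0.14 for Sncb SN minus VTA, -0.48 to -0.31 for Sncb CP minus LSX (passing without GqVeh 802, adjusted p = 0.0302), -0.16 to 0.37 for Sncb CP minus white matter, and -1.12 to 0.60 for the SN minus VTA response of Sncb. Ranges of the ratios were, for Sncg to Sncb in the SN (-0.53 to 1.07), VTA (-0.56 to -0.39) and CP (-0.035 to 0.16), for Sncg to neuronal genes in the SN (0.22 to 0.94) and VTA (-0.68 to -0.18), and for Sncb to neuronal genes in the SN (-0.64 to 0.75) and VTA (-0.18 to 0.38). Sncg to neuronal genes had an exact p of 0.0476 in the SN without GqCNO 804 and in the VTA without GqCNO 781. TMM put the median of all genes in the SN at -0.27, against -0.0822. Genes called ranged from 0 to 142 over alternatives in the VTA and from 0 to 75 in the SN (GqCNO minus all controls), with 142 and 54 by edgeR on the recovered UMIs. Low UMI numbers limit every SN value. The disc labels carry C1 or C2, which goes with the array pair, and both pairs hold all 3 groups. Among the group comparisons the array pair as a block ended the call of Sncg in the VTA versus GqVeh (limma adjusted p = 0.0677) and changed no other member call. Genes called in the CP numbered 47 with the block and 0 without it for GqCNO minus all controls, 46 and 5 for GqCNO minus GqVeh, 6 and 0 for GqCNO minus CNO alone, and 11 and 0 for GqVeh minus CNO alone. They numbered 7 and 12 in the SN for GqCNO minus GqVeh, and 3 and 5 in the VTA for GqVeh minus CNO alone. Genes tested in either region, an alternative chosen after seeing the data, admits Sncg through the region where it is high, so no test of it is given.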
